A study of Mus musculus with 167 samples.

Results

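The genes described here are 35 genes of fatty acid oxidation in mouse liver, many of them targets of the nuclear receptor PPARA. They were chosen as a list by function out of 39179 gene IDs in the deposited tables, with earlier results of these data known. Each of the 35 was found under 1 ID and passed the filter on low counts at every age. The list holds 2 regulators, 6 genes of uptake and the carnitine shuttle, 11 of mitochondrial beta-oxidation, 5 of peroxisomal oxidation, 4 microsomal omega-hydroxylases, 4 acyl-CoA thioesterases and 3 other PPARA targets. The data were polyA RNA-seq counts from liver libraries of C57BL/6 mice aged 2, 6 and 10 months. Every knock-in mouse was heterozygous at Htt, whose expanded CAG repeat causes Huntington's disease, and carried a repeat named by its line as Q20, Q80, Q92, Q111, Q140 or Q175, and wild-type mice (WT) completed the series. Each of the 21 groups of genotype and age had 8 libraries, 4 labelled female and 4 labelled male, except Q80 at 2 months (3 female, 5 male) and Q80 at 10 months (4 female, 3 male). No group carried a treatment, a Cre driver or a second allele in its labels, and the knock-in allele was present in the whole animal. Repeat lengths are those in the line names, since no measured length per animal was used here.

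PPARA is a ligand-activated transcription factor that pairs with RXR and binds direct repeats near its targets; in liver its ligands include fatty acids and fibrate drugs. Long-chain fatty acids enter mitochondria as carnitine esters through CPT1, a translocase and CPT2, and are shortened there by a repeated cycle of 4 enzyme steps. Very long and branched chains begin their oxidation in peroxisomes, while Cyp4a enzymes of the endoplasmic reticulum hydroxylate the end carbon of the chain, the first step of a route to dicarboxylic acids. Acyl-CoA thioesterases release free fatty acid from CoA, and many genes of all these routes rise in fasting or under PPARA agonists.

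Of the 35 genes, 28 had a promoter in the RefSeq table of build GRCm38.p6, a window from 250 bases before to 50 bases after the annotated start. Decr1, Acaa2, Crat, Vnn1, Cyp4a14, Cyp4a31 and Cyp4a10 had none. The windows were searched on both strands for a direct repeat of the nuclear receptor hexamer AGGNCA spaced by 1 base, written AGGNCANAGGNCA, and for a shorter form, GGNCAAAGGNCA. The longer form occurred in 0.381% of all 32851 windows and in that of 1 listed gene, Fabp1. The shorter form occurred in 0.204% of all windows and in that of 1 listed gene, Acot4. They overlap in the letters they share, and a match is a description of the letters, not a binding site. The upstream 250 bases of both windows are printed because Fabp1 was the most abundant of these transcripts and Acot4 was one of the genes most different between the sexes. Hadhb is printed as well because it shares a divergent promoter with Hadha, and these 2 genes varied together from library to library. The Fabp1 bases lie at chr6:71199629-71199878, those of Acot4 at chr12:84038129-84038378 and those of Hadhb at chr5:30155003-30155252, all on the plus strand, with the last base next to the RefSeq start. Capitals mark the repeat, read from the minus strand, in Fabp1 and Acot4, and the GC box GGGCGG in Hadhb.
Fabp1: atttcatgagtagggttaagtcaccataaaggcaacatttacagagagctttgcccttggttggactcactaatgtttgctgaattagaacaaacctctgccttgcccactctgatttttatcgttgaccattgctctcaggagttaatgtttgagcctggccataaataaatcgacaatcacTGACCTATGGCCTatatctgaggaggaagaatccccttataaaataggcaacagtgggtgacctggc
Acot4: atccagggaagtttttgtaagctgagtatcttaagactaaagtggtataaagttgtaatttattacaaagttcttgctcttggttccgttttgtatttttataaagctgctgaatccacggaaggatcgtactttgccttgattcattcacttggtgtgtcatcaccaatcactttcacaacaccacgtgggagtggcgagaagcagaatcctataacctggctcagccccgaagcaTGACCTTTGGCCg
Hadhb: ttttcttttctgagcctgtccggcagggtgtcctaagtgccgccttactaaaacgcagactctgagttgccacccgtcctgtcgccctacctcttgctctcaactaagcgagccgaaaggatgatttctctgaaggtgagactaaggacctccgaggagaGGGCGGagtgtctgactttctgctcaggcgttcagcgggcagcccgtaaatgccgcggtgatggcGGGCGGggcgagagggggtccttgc
The Fabp1 match began 67 bases and the Acot4 match 13 bases before the RefSeq start. The 28 listed genes had 30 windows, and GC boxes stood in 18 of these 30, each of another gene, and in 35.7% of all windows. CCAAT, searched on both strands, stood in 16 of the 30 windows, those of 15 listed genes, and in 37.4% of all windows. The Hadha and Hadhb windows overlapped by 228 bases, and the 2 genes lie head to head with 86 bases between their ends in GENCODE (Hadha at chr5:30118304-30155162, minus strand; Hadhb at chr5:30155248-30184593, plus strand).

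Expected counts per library summed to between 32025244 and 57151736 reads (median 38663519). Some libraries stood apart. The Q80 library labelled M5 at 2 months, labelled male, had no Ddx3y reads, where the other males had 59.3 to 81.7 CPM (counts scaled to library size), and its Xist level of 0.513 CPM was far below the 397 to 747 CPM of the females. Its library name carries the code Q80B0021, as do those of the Q80 females of that age, where the other Q80 males carry Q80B0017. It was kept as labelled in the 2-month fits except where stated. Among the Q20 females of 6 months, F1, F3 and F4 carried the highest summed macrophage markers of that age, 759 to 913 CPM against at most 540 CPM in the other genotypes. At 10 months the Q175 female F3 had a skeletal muscle marker sum of 748 CPM and the Q175 male M4 a red cell marker sum of 7874 CPM. Library names of 2 and 10 months differed in their leading numbers, so these ages cannot be told apart from that numbering. At 6 months the knock-in libraries carried index codes of another series than the wild-type libraries and than those of the other ages. Genotype against wild type at 6 months, and 6 against 2 or 10 months in the knock-in lines, thus cannot be told apart from that series. Within that series Q20 and Q92 carried 1 set of codes, Q80 and Q175 another, and Q111 and Q140 another again (Q175 F3 and M3 had none). So Q80, Q111, Q140 and Q175 against Q20 at that age cannot be told apart from the set of codes. Within each set, females and males carried different index codes. In the other libraries, females and males of a genotype and age carried different codes of the kind Q80B0021, apart from Q80 M5. The labels do not say what these codes stand for, and sex cannot be told apart from them. Hepatocyte markers were abundant in every library, with 6 of 6 detected. The labels number the libraries of a group as replicates and do not say that each came from a separate animal, so p-values measure the spread between these libraries. In bulk tissue, fewer cells of a type and less RNA per cell cannot be told apart.

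Levels per transcript length, in FPKM, placed the fatty acid binding protein Fabp1 far above the rest, with a median of 4059 FPKM over all libraries. The thiolases came next: Acaa1b, the inducible peroxisomal one, had 484 FPKM and Acaa2, the mitochondrial one, 478 FPKM. Both main Cyp4a genes followed, with Cyp4a14 at 216 FPKM and Cyp4a10 at 198 FPKM. The lowest medians were those of Pdk4, the kinase that shuts down pyruvate dehydrogenase in fasting, at 1.30 FPKM, and of the mitochondrial thioesterase Acot2 at 1.92 FPKM. The mitochondrial enzymes ranged from 55.7 FPKM (Decr1) to 478 FPKM (Acaa2), while Ppara itself had 39.3 FPKM and Cpt1a, the gatekeeper of mitochondrial import, 82.3 FPKM. Order within each route is therefore a description of abundance, and neighbours such as Hadha (105 FPKM), Hadhb (102 FPKM) and Etfdh (101 FPKM) did not differ beyond their spread over libraries.

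**Figure D1:**
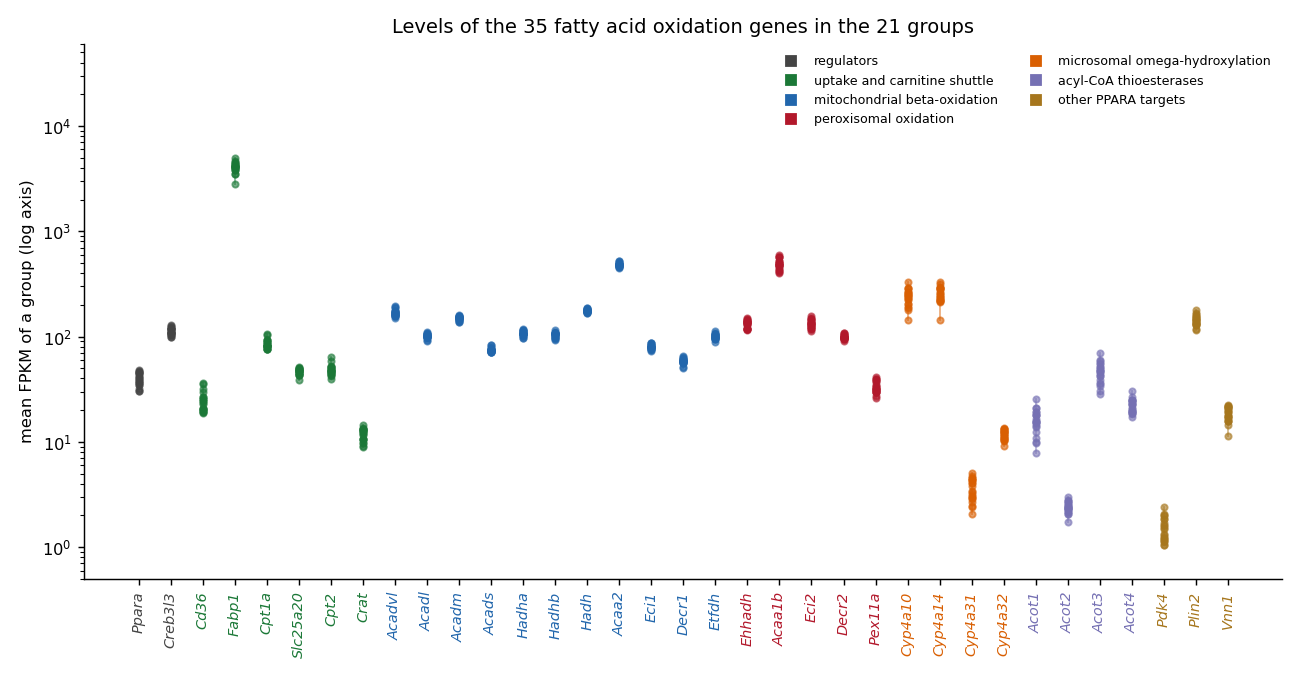
Mean FPKM of each of the 21 groups (points) for each of the 35 genes, on a log axis, coloured by route. Points of the mitochondrial genes lie nearly on top of each other, with the highest and lowest group means of Hadh 1.16 times apart in CPM, while those of Acot1 are 3.37 times apart.

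The routes differed in how steady they were. After genotype, age and sex were taken out, the SD between libraries on the log2 scale had a median of 0.14 over the 11 mitochondrial genes, with a range from 0.11 (Acadvl) to 0.16 (Decr1). The median was 0.23 for the peroxisomal genes, 0.59 for the 4 microsomal Cyp4a genes and 0.54 for the 4 thioesterases, beside 0.24 over all 16235 genes tested. Acot3, a peroxisomal thioesterase, had the largest value at 1.04, above 99.1% of all genes tested, and Cyp4a14 followed at 0.84, above 97.9%. Acot3 was low in males, with the Q80 library M5 in the female range (below), and its SD without these libraries is not given here. The core enzymes of the mitochondrial cycle thus varied least, and the inducible Cyp4a and Acot genes most. The ratio of the highest to the lowest of the 21 group means was largest for Acot1, at 3.37 (39.5 CPM in Q92 at 2 months against 11.7 CPM in Q20 at 6 months). In 17 of the 35 genes the lowest of the 21 group means was that of Q20 at 6 months. The same share over all genes is not given here, so this count is not read as particular to the list. Q20 differed from wild type at 6 months in 31.3% of all genes (edgeR).

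Some of these genes varied together between libraries within their groups. With each gene centred within genotype, age and sex over all libraries, Cyp4a14 followed Cyp4a10 with Pearson's r = 0.86 and Spearman's rho = 0.82. It followed Acot1 with r = 0.69 and rho = 0.74, and Ehhadh, the bifunctional enzyme of the peroxisome, with r = 0.58 and rho = 0.58. Hadha and Hadhb, which encode the 2 subunits of the mitochondrial trifunctional protein, had r = 0.87 and rho = 0.87. In each of these 4 pairs the permutation test of either coefficient gave the smallest p that 100000 permutations allow, 1e-05, and 2.2e-05 after Benjamini-Hochberg adjustment over 9 pairs. Cyp4a14 was only weakly related to Pdk4 (r = 0.23, rho = 0.25, p = 0.0051 and 0.004, adjusted p = 0.0092 and 0.0072, permutation test). At 2, 6 and 10 months alone r was 0.15, 0.31 and 0.23 for Pdk4, and centred within age and sex it was 0.35. No relation passed the threshold for Cyp4a14 with Plin2 (r = 0.16, rho = 0.18, adjusted p = 0.11 and 0.062), with Cpt1a (r = 0.07, rho = 0.07, adjusted p = 0.51 and 0.48) or with Ppara (r = 0.05, rho = 0.04, adjusted p = 0.58 and 0.63), nor for Cpt1a with Pdk4 (r = -0.03, rho = -0.08, adjusted p = 0.71 and 0.47). Leaving out the 2 libraries farthest from the median of the first gene gave r = 0.84 for Cyp4a10, 0.70 for Acot1, 0.57 for Ehhadh, 0.26 for Pdk4 and 0.87 for Hadha with Hadhb. Within single ages Cyp4a14 and Cyp4a10 had r = 0.91, 0.78 and 0.90 at the 3 ages in order, and Hadha with Hadhb had 0.88, 0.90 and 0.85. For Cyp4a14 with Plin2 the values were -0.05, 0.41 and 0.16, so the pooled value did not hold at every age. They were 0.13, 0.17 and -0.06 with Cpt1a and 0.10, -0.04 and 0.07 with Ppara. Some of these genes share sequence with genes outside the pair: of the 50-base windows of the Cyp4a10 transcript 30.5% occur in another gene, mostly Cyp4a32, but only 0.245% of those of Cyp4a14, and 62.4% of those of Hadhb occur in another gene, mostly the gene Gm13910.

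Of the comparisons made, sex gave the most calls. At each of the 3 ages 24 of the 35 genes (68.6%) differed between libraries labelled female and male, beside 57.2% of all genes tested at 2 months, 60.4% at 6 months and 56.6% at 10 months (edgeR quasi-likelihood test, Benjamini-Hochberg adjusted p under 0.05). They were higher in females in 19, 16 and 18 cases, beside 29.6%, 31.1% and 29.8% of all genes, and lower in 5, 8 and 6, beside 27.6%, 29.4% and 26.8%. The median log2 difference over the 35 genes, female minus male, was 0.20, 0.11 and 0.24, against 0.01, 0.01 and 0.02 over all genes. Higher in females at all 3 ages were 15 genes: Cd36, Cpt1a, Acadl, Hadh, Decr1, Ehhadh, Eci2, Decr2, Cyp4a10, Cyp4a14, Acot1, Acot2, Acot3, Acot4 and Vnn1. Lower at all 3 ages were 4: Cpt2, Acads, Etfdh and Cyp4a32. In Q20 libraries alone at 6 months Acot1 had the opposite sign (-0.46 ± 0.27), and Decr1 and Eci2 lay near 0 (-0.0029 and -0.0082). In wild-type libraries alone Etfdh was positive at 2 months (0.08 ± 0.09) and 10 months (0.05 ± 0.10), and Cpt2 at 2 months (0.02 ± 0.13). A further 6 passed at no age, namely Slc25a20, Acadm, Hadha, Acaa2, Pex11a and Pdk4, and 10 passed at 1 or 2 ages.

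The thioesterases of the Acot cluster on chromosome 12 showed the widest gap. Acot3 (chr12:84052144-84060402, plus strand in GENCODE M21, GRCm38) ran from 43.3 to 310 CPM in the 28 females of 6 months, with a median of 149, and from 0.308 to 7.13 CPM in the 28 males, with a median of 1.67. The groups did not overlap, and the ratio of medians was 88.8. At 10 months the female range was 58.4 to 350 CPM (median 202) and the male range 0.598 to 31.9 CPM (median 2.01), again without overlap, a ratio of 101. At 2 months the male range reached 173 CPM, but that value was the Q80 library M5, whose Y-linked reads were absent; without it the medians were 151 and 3.41 CPM, a ratio of 44.4, and the groups did not overlap. The fitted log2 differences were 4.86 ± 0.40 (SE) at 2 months, 5.24 ± 0.24 there without M5, 6.16 ± 0.23 at 6 months and 5.66 ± 0.35 at 10 months (adjusted p = 3.9e-15, 1.1e-25, 1.4e-29 and 1.3e-19, edgeR). Acot4, a peroxisomal thioesterase of dicarboxylic acyl-CoAs, had 40.1 to 110 CPM in females and 9.12 to 22.96 CPM in males at 6 months, also without overlap. Its ratio of medians was 4.79 at 2 months without M5 and 5.14 at 10 months. The share of all genes without overlap between the sexes is not given here, so the lack of overlap is not read as particular to these genes. Acot2 rose less, with log2 differences of 1.14 ± 0.14, 1.37 ± 0.11 and 1.65 ± 0.14, and the cytosolic Acot1 least, with 0.98 ± 0.17, 0.64 ± 0.18 and 0.94 ± 0.18. Acot1 shared 33.02% of its 50-base transcript windows with other genes, Acot2 27.7%, Acot3 19.5% and Acot4 4.87%, so the split of reads between Acot1 and Acot2 in particular is uncertain.

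The microsomal genes of the Cyp4a cluster on chromosome 4 were split by sex in both directions. Cyp4a14 (chr4:115486200-115496142, minus strand) ran from 373 to 1571 CPM in females at 6 months, with a median of 838, and from 54.6 to 581.7 CPM in males, with a median of 201. Most females were above most males, but the ranges met. From the youngest to the oldest age, the log2 difference was 1.63 ± 0.23, 1.88 ± 0.19 and 1.92 ± 0.25 (adjusted p = 3.6e-08, 1.5e-12 and 4.3e-09, edgeR). Cyp4a10 (chr4:115518264-115533649, plus strand) differed by 1.18 ± 0.16, 1.22 ± 0.15 and 1.44 ± 0.16, and Cyp4a31 by 0.82 ± 0.13 at 2 months alone past the threshold. Cyp4a32 went the other way, at -0.79 ± 0.09, -0.62 ± 0.10 and -0.66 ± 0.10, with medians of 12.4 CPM in females and 18.5 CPM in males at 6 months. Of the Cyp4a32 windows 46.8% occur in another gene, mostly Cyp4a10, so reads of these 2 genes may be divided in either direction. Among omega-oxidation genes outside the list, the male-typical hydroxylases Cyp4a12a and Cyp4a12b showed the largest gap: Cyp4a12a had a male median of 347 CPM at 6 months against 0.286 CPM in females, and its log2 difference was -9.29, -9.83 and -9.58 at the 3 ages.

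**Figure D2:**
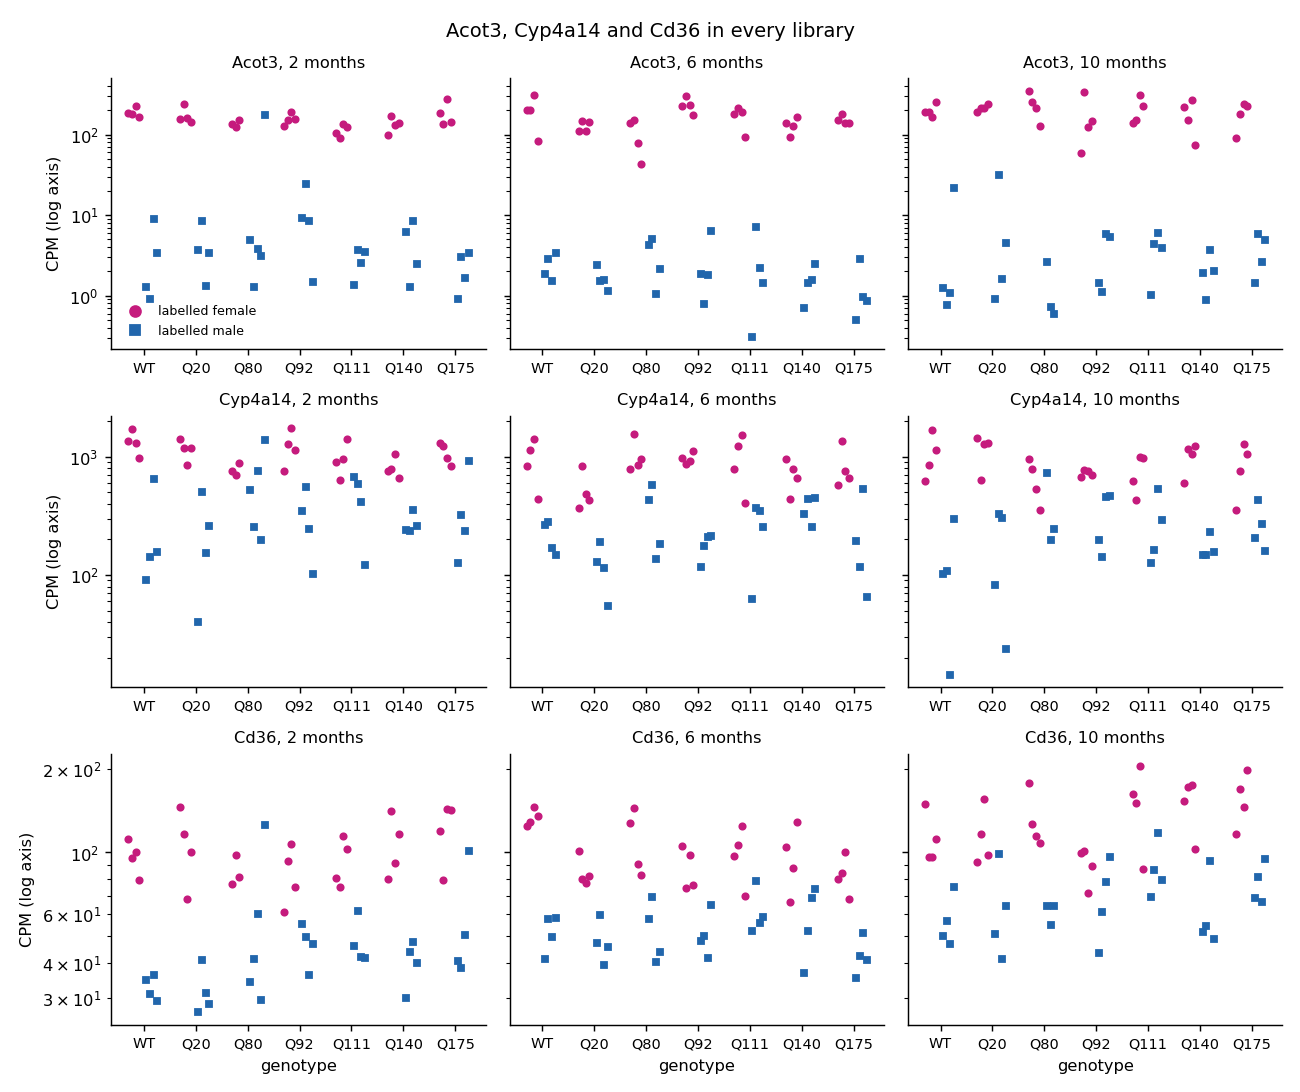
CPM of Acot3, Cyp4a14 and Cd36 in every library, on a log axis, by genotype and age, with labelled females in pink and labelled males in blue. For Acot3 the colours form separate bands in every group except Q80 at 2 months, where the library labelled M5 lies among the females at 173 CPM; for Cyp4a14 and Cd36 the bands meet.

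Uptake and transport genes differed by sex as well. Cd36, a fatty acid translocase of the plasma membrane, ran from 66.1 to 146 CPM in females at 6 months (median 97.4) and from 35.3 to 79.0 CPM in males (median 50.6). The bands met only at their edges. Its log2 difference was 1.18 ± 0.12, 0.93 ± 0.08 and 0.91 ± 0.10 at the 3 ages. Cpt1a was higher in females by 0.35 ± 0.06, 0.41 ± 0.05 and 0.30 ± 0.06, whereas Cpt2, the carnitine acyltransferase of the inner mitochondrial membrane, was lower by -0.24 ± 0.05, -0.31 ± 0.05 and -0.22 ± 0.04. Crat, the acetyltransferase that exports short acyl groups, was higher at 2 months (0.37 ± 0.10) and 10 months (0.57 ± 0.12). Fabp1 was lower at 10 months only, by -0.16 ± 0.06 (adjusted p = 0.031, edgeR), and Slc25a20, the carnitine-acylcarnitine translocase, passed at no age.

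Within the mitochondrial cycle the differences were small and went both ways. The largest were those of Acadl, the long-chain acyl-CoA dehydrogenase, at 0.43 ± 0.04, 0.50 ± 0.04 and 0.53 ± 0.04, and of Hadh, the short-chain hydroxyacyl-CoA dehydrogenase, at 0.40 ± 0.04, 0.42 ± 0.03 and 0.42 ± 0.04. Acadl had 160 to 257 CPM in the females and 115 to 182 CPM in the males of 6 months, so these ranges overlapped only in part. Acads, the short-chain dehydrogenase, was lower in females by -0.16, -0.13 and -0.13, though at 0.020 at 10 months with limma on FPKM, and Etfdh, which passes electrons on to ubiquinone, by -0.19, -0.24 and -0.18. Acadm, Hadha and Acaa2 stayed between -0.03 and 0.08 at all ages and did not pass. Among the peroxisomal genes Decr2 was higher by 0.36, 0.42 and 0.49, Ehhadh by 0.36, 0.39 and 0.41 and Eci2 by 0.32, 0.29 and 0.25, whereas Acaa1b was lower by -0.20 and -0.23 at 2 and 6 months. At 2 months Acaa1b was positive in wild-type libraries alone (0.27 ± 0.13) and in Q20 libraries alone (0.36 ± 0.11). Acaa1b shares 35.5% of its windows with Acaa1a. Vnn1, a pantetheinase often used as a PPARA marker, was higher in females by 1.32 ± 0.14, 1.03 ± 0.14 and 0.95 ± 0.11.

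Among the regulators, Ppara (chr15:85734983-85802819, plus strand) had medians of 128 CPM in females and 101 CPM in males at 2 months, 120 and 87.9 CPM at 6 months and 126 and 106 CPM at 10 months. The log2 difference passed at 2 months (0.41 ± 0.09) and 6 months (0.49 ± 0.08) and missed the threshold at 10 months (0.22 ± 0.10, adjusted p = 0.0504, edgeR). Creb3l3, a liver transcription factor that acts with PPARA in fasting, was lower in females by -0.16 ± 0.05 at 6 and at 10 months. In wild-type libraries alone, with 4 of each sex per age, 15 of the 35 genes passed at 2 months, 12 at 6 months and 12 at 10 months, all higher in females. Among all genes 10.5%, 16.1% and 13.1% passed there, and 5.49%, 8.24% and 6.14% were higher in females. In Q20 libraries alone 20, 14 and 14 passed, beside 12%, 29.7% and 12% of all genes, and at 6 months 5 of those 14 were lower in females, beside 14.2% of all genes. At 2 months some sizes were larger in wild-type and in Q20 libraries alone than the averages over all genotypes given above. Vnn1 had 2.04 ± 0.27 and 2.10 ± 0.16, and Acot1 1.79 ± 0.32 and 1.68 ± 0.32. Cyp4a14 had 2.38 ± 0.54 and 2.29 ± 0.58. Cyp4a32 was less negative, at -0.47 ± 0.19 and -0.47 ± 0.17. The other lines alone are not given here.

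Summed markers of other cells also differed by sex. At 6 months the macrophage markers (7 of 7 detected) summed to 195 to 913 CPM in females and 91.0 to 415 CPM in males, and the endothelial markers (5 of 5) to 62.2 to 276 CPM and 64.8 to 200 CPM. Adipocyte markers summed to a median of 3.53 CPM in females and 5.08 CPM in males, and hepatocyte markers to 109191 and 95312 CPM. Their part in the sex differences was not tested. Other genes of the pathway, a fixed list of 80, passed in 44, 54 and 55 cases at 2, 6 and 10 months, beside 57.2%, 60.4% and 56.6% of all genes, a share near the background. Of 18 other peroxisomal genes 10, 12 and 10 were lower in females, beside 27.6%, 29.4% and 26.8% of all genes, among them Scp2, the sterol carrier and thiolase, at -1.07, -1.27 and -1.22, and Phyh, which begins alpha-oxidation of phytanic acid, at -0.65 at 2 months and -0.69 at 6 months. The peroxisomal transporter Abcd2 was higher in females by 2.98 at 10 months. Of 17 other mitochondrial genes 11, 11 and 10 were higher in females, beside 29.6%, 31.1% and 29.8% of all genes.

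Age was compared within the 6 knock-in lines together, with genotype and sex in the model, so that all 3 age comparisons share libraries in pairs. From 2 to 6 months 17 of the 35 genes changed, 2 up and 15 down, beside 53.7% of all genes tested, 26.8% up and 26.9% down. All 4 Cyp4a genes fell, Cyp4a10 by -0.53 ± 0.12, Cyp4a31 by -0.52 ± 0.13, Cyp4a14 by -0.50 ± 0.16 and Cyp4a32 by -0.19 ± 0.07. Fabp1 fell by -0.30 ± 0.06, Ehhadh by -0.22 ± 0.05, Hadhb by -0.18 ± 0.03, Decr1 by -0.16 ± 0.04, Slc25a20 by -0.15 ± 0.04 and Acadl by -0.12 ± 0.03. The thioesterases Acot3 and Acot4 fell by -0.96 ± 0.26 and -0.34 ± 0.09. Over all genotypes, the female medians of Acot3 given above were nearly equal at 2 and 6 months, while the low male medians fell. The age fit holds the Q80 library M5 as a male of 2 months, and its result without M5 is not given here. Cpt2 rose by 0.16 ± 0.04 and Acadvl, the very-long-chain dehydrogenase, by 0.06 ± 0.02. Between 2 and 10 months 14 genes changed, 1 up and 13 down, beside 20.7% of all genes, 11.4% up and 9.3% down. Cd36 was the 1 that rose, by 0.48 ± 0.08 (adjusted p = 1.5e-06, edgeR), and Cyp4a31, Acot1 and Cyp4a10 fell by -0.66 ± 0.13, -0.54 ± 0.14 and -0.46 ± 0.12. Between 6 and 10 months 14 changed, 8 up and 6 down, beside 54% of all genes, 28.4% up and 25.5% down, with Cpt2 at -0.30 ± 0.04, Acadvl at -0.17 ± 0.02 and Cd36 at 0.47 ± 0.08. The median over the 35 genes was -0.08 at 6 against 2 months, -0.08 at 10 against 2 months and -0.01 at 10 against 6 months, and the medians over all genes lay between 0.00 and 0.01.

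Most of these age differences were not detected in wild-type libraries alone, with 8 per age. There Cd36 passed at 6 against 2 months (0.54 ± 0.12) and at 10 against 2 months (0.52 ± 0.12), as the only 1 of the 35 in each, beside 1.31% and 1.47% of all genes, and 0 passed at 10 against 6 months, beside 0.0648% (edgeR; 1 at an unadjusted p under 0.05, beside 18.7%). In wild-type libraries the estimates for Cyp4a14 were -0.37 ± 0.42 at 6 against 2 months and -0.63 ± 0.42 at 10 against 2 months. For 6 against 2 months Cyp4a32 and Acadvl had the opposite sign there, at 0.17 ± 0.20 and -0.11 ± 0.06. A rise of Cd36 from 2 to 10 months was thus the age difference that passed in both knock-in and wild-type libraries. Of the 80 other pathway genes 38, 22 and 41 passed in the 3 comparisons of the knock-in lines, beside 53.7%, 20.7% and 54% of all genes, among them Ppard at 0.32 and Acaa1a at 0.25 for 6 against 2 months and Cidec, a lipid droplet protein, at 1.01 for 10 against 2 months.

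Repeat length was fitted as a trend over the knock-in lines, with sex as a covariate, in log2 change per 100 repeats. At 2 months 0 of the 35 genes passed (edgeR and DESeq2; 7 at an unadjusted p under 0.05), beside 0.266% of all genes tested past the adjusted and 15.3% past the unadjusted threshold, and the smallest p values were those of Slc25a20 (0.18 ± 0.05, adjusted p = 0.11) and Creb3l3 (0.16 ± 0.05, adjusted p = 0.15). At 6 months 3 passed, beside 5.67% of all genes. Ppara fell with repeat length by -0.40 ± 0.09 (adjusted p = 0.0096), Cpt1a by -0.24 ± 0.06 (adjusted p = 0.016), and Fabp1 rose by 0.33 ± 0.10 (adjusted p = 0.038, edgeR for all). With the Q20 libraries left out of the trend 0 passed, beside 0.0844% of all genes, and with the Q175 libraries left out 0 passed, beside 1.94%. At 10 months 0 passed (edgeR and DESeq2; 8 at an unadjusted p under 0.05), beside 0.25% and 10% of all genes, with Cpt2 at -0.16 ± 0.06 (adjusted p = 0.28) and Plin2, the droplet coat protein, at -0.26 ± 0.11 (adjusted p = 0.37). The change of the trend from 2 to 6 months and from 2 to 10 months passed for 0 genes (edgeR and DESeq2; 6 and 9 at an unadjusted p under 0.05), beside 0.249% and 0.53% of all genes past the adjusted and 12% and 15.5% past the unadjusted threshold.

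Each longer line was also compared with Q20, and these comparisons share the Q20 libraries with each other and with the trend. At 6 months Q92 alone of the longer lines shared the set of index codes of Q20. Between Q175 and Q20 at 6 months 8 of the 35 genes differed, beside 10.2% of all genes tested, and the median over the 35 was 0.16 against -0.01 over all genes. Ppara was lower by -0.70 ± 0.14 (adjusted p = 0.0027) and Cpt1a by -0.39 ± 0.10 (adjusted p = 0.0088). Fabp1 was higher by 0.56 ± 0.14 (adjusted p = 0.0098), Acot1 by 1.11 ± 0.34 (adjusted p = 0.027) and 4 mitochondrial enzymes by less: Acadvl by 0.23 ± 0.06 (adjusted p = 0.0096), Acaa2 by 0.22 ± 0.06 (adjusted p = 0.017), Eci1 by 0.27 ± 0.09 (adjusted p = 0.039) and Acads by 0.19 ± 0.06 (adjusted p = 0.044), all from edgeR. The estimates of all 11 mitochondrial genes were positive, but with the 3 Q20 females high in macrophage markers left out those of Acadm (-0.0058) and Etfdh (-0.045) were not. The share of positive estimates over all genes is not given here. Ppara, Cpt1a, Fabp1 and Acadvl passed in 16 of 16 fits with 1 Q175 or Q20 library left out, and Acot1 in 12 of 16, with adjusted p up to 0.078.

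Ppara at 6 months differed most between the males. The Q20 males had 108, 88.1, 116 and 131 CPM and the Q175 males 59.7, 60.5, 34.9 and 51.8 CPM, without overlap. The Q20 females had 132, 156, 153 and 146 CPM and the Q175 females 119, 95.8, 111 and 137 CPM, which met at 1 library. In the males the other lines had mean levels of 84.0 ± 10.95 CPM in Q80, 127 ± 17.9 in Q92, 101 ± 17.4 in Q111 and 83.1 ± 18.6 in Q140 (SD, n = 4 each), and wild-type males had 81.2 ± 19.5 CPM. The order of the male means did not follow repeat length step by step, since Q92 was highest. Fitted in males alone, Ppara differed between Q175 and Q20 by -1.11 ± 0.19 (adjusted p = 0.0059) and Cpt1a by -0.65 ± 0.11 (adjusted p = 0.0059), the 2 genes of the 35 that passed, beside 5.23% of all genes (edgeR). In females alone Acot1 was the 1 that passed, at 2.00 ± 0.48 (adjusted p = 0.026), beside 3.48%, while Ppara had -0.35 ± 0.15 (adjusted p = 0.16) and Cpt1a -0.11 ± 0.14 (adjusted p = 0.70).

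Cpt1a (chr19:3322334-3385733, plus strand) had 351, 384, 427 and 416 CPM in the Q20 males of 6 months and 245, 277, 253 and 234 CPM in the Q175 males. These did not overlap, whereas the Q20 females (390 to 512 CPM) and the Q175 females (398 to 481 CPM) did. Wild-type males had 264 to 361 CPM, between and across both. The difference of the trend between the sexes at 6 months did not pass for any of the 35 genes (edgeR and DESeq2; 5 at an unadjusted p under 0.05), beside 0.213% and 12.4% of all genes, with 0.31 ± 0.12 for Cpt1a (adjusted p = 0.25) and 0.42 ± 0.18 for Ppara (adjusted p = 0.31), female minus male. At 2 and 10 months it passed for 0 genes as well (edgeR and DESeq2; 5 and 2 at an unadjusted p under 0.05), beside 0% and 0.173% of all genes past the adjusted and 5.17% and 15.1% past the unadjusted threshold.

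Fabp1 lies at chr6:71199827-71205023 on the plus strand in GENCODE. Its bases printed above end next to the RefSeq start and so run past this GENCODE start. Fabp1 had 849, 1431, 1317 and 1276 CPM in the Q20 females of 6 months and 1356, 2254, 2209 and 2428 CPM in the Q175 females. The Q20 males had 1528, 1384, 2276 and 1862 CPM and the Q175 males 2006, 2338, 2605 and 2512 CPM. In each sex the Q175 libraries were mostly the higher ones, and the ranges met. Acot1 in females had 5.10, 10.8, 12.7 and 10.7 CPM in Q20 and 18.4, 56.3, 37.9 and 45.5 CPM in Q175, without overlap, and in males 11.4 to 19.03 and 15.2 to 21.9 CPM, with overlap.

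**Figure D3:**
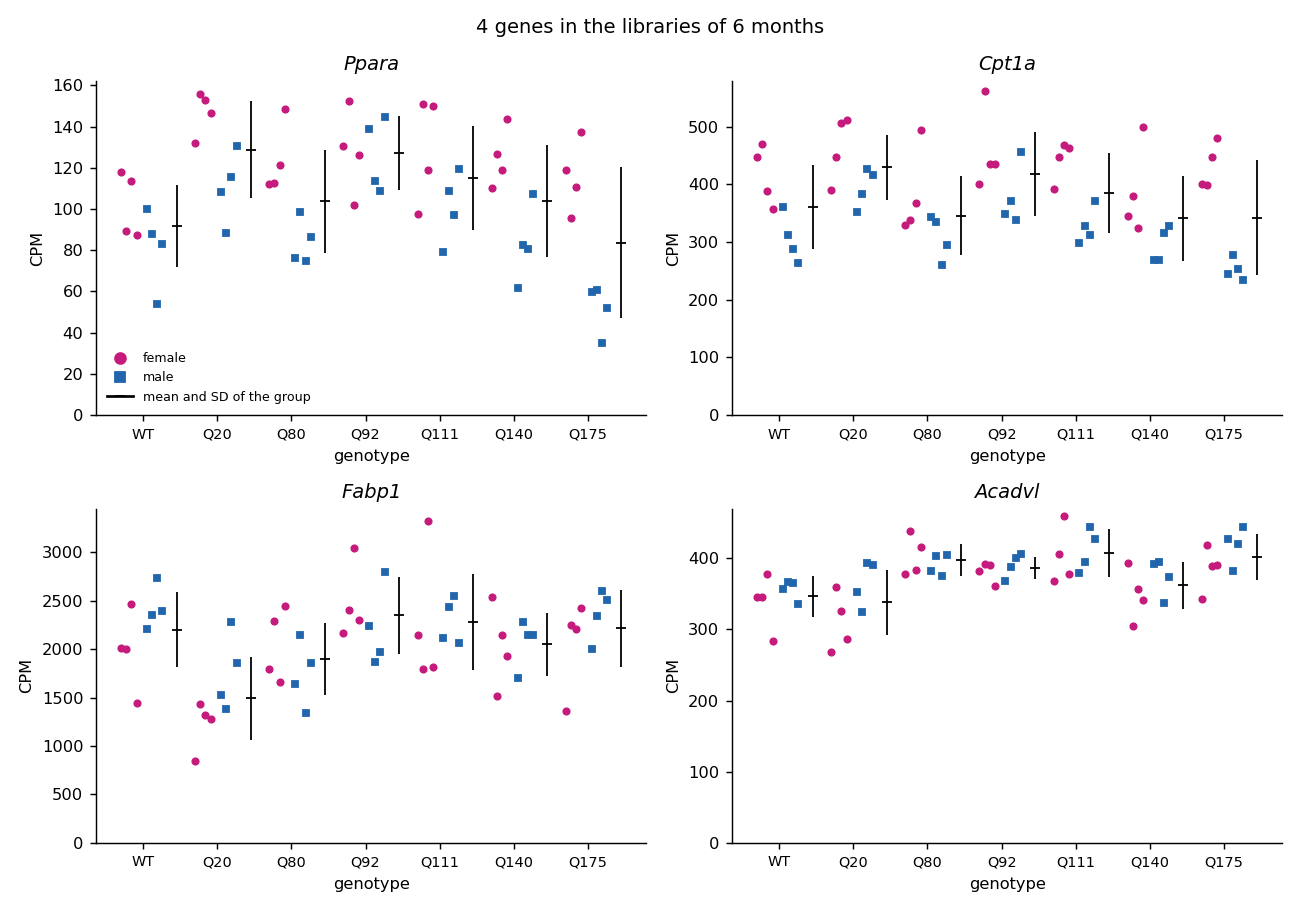
CPM of Ppara, Cpt1a, Fabp1 and Acadvl in each library of 6 months by genotype, with the group mean and SD, labelled females and males in separate colours. For Ppara the Q175 males (34.9 to 60.5 CPM) lie at the low end together with 1 wild-type male at 54.1 CPM, for Cpt1a they lie below the Q20 males, and the Q20 group has the lowest mean for Fabp1.

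Libraries of Q20 at 6 months stood apart in marker sums, and the fit over both sexes kept no call without 3 of them. Those 3 are females, so the fit in males alone, with its calls of Ppara and Cpt1a, holds none of them. Leaving them out also leaves fewer Q20 libraries, and its part in the lost calls was not tested. Macrophage markers (7 of 7 detected) summed to 283 to 913 CPM in Q20 and to 91.0 to 418 CPM in Q175 at that age, and endothelial markers (5 of 5 detected) to 119 to 276 and 64.8 to 200 CPM. In males alone the macrophage sums were 283 to 359 CPM in Q20 and 91.0 to 302 CPM in Q175, and the endothelial sums 119 to 200 and 64.8 to 99.4 CPM. Stellate and fibroblast markers (6 of 6 detected) summed to 214 to 321 CPM in the Q20 males and 131 to 202 CPM in the Q175 males, without overlap. Their part in the differences was not tested. With F1, F3 and F4 of the Q20 females left out, 0 of the 35 genes passed in Q175 against Q20 (edgeR; 8 at an unadjusted p under 0.05), beside 0.012% of all genes past the adjusted and 14.2% past the unadjusted threshold. The sizes without them were -0.73 ± 0.17 for Ppara (adjusted p = 0.061), -0.42 ± 0.11 for Cpt1a (adjusted p = 0.094) and 0.39 ± 0.16 for Fabp1 (adjusted p = 0.24). The trend at 6 months likewise had 0 calls without them (edgeR; 6 at an unadjusted p under 0.05), beside 0.14% and 11.9% of all genes, with Ppara at -0.45 ± 0.11 (adjusted p = 0.069). With the set of index codes as a covariate, which drops the Q175 libraries F3 and M3 for want of a code, the trend was -0.21 ± 0.11 for Ppara (adjusted p = 0.26), -0.10 ± 0.08 for Cpt1a (adjusted p = 0.50) and 0.40 ± 0.14 for Fabp1 (adjusted p = 0.087), and 0 genes passed, beside 2.28% of all genes.

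Against wild type in place of Q20, Q175 at 6 months differed in 4 of the 35 genes, beside 25.2% of all genes: Acadvl was higher by 0.21 ± 0.06, and Cd36, Cyp4a32 and Plin2 were lower by -0.50 ± 0.15, -0.62 ± 0.19 and -0.41 ± 0.14. Ppara was then -0.19 ± 0.14 (adjusted p = 0.34) and Fabp1 0.01 ± 0.14 (adjusted p = 0.96). Q20 itself differed from wild type at 6 months in 10 genes, beside 31.3% of all genes, with Ppara higher by 0.51 ± 0.14 and Cpt1a by 0.29 ± 0.10. Lower in Q20 were Fabp1 by -0.55 ± 0.14, Cyp4a10 by -0.83 ± 0.28, Cd36 by -0.37 ± 0.15, Slc25a20 by -0.35 ± 0.10, Decr1 by -0.28 ± 0.09, Hadhb by -0.24 ± 0.08, Acadl by -0.23 ± 0.07 and Acadm by -0.20 ± 0.07. Without the 3 Q20 females the same comparison kept 2 calls, Ppara at 0.53 and Cpt1a at 0.32, beside 20.2% of all genes. At 2 and 10 months 0 of the 35 genes differed between Q20 and wild type (edgeR and DESeq2; 0 at an unadjusted p under 0.05 at either age), beside 0% and 0.00637% of all genes past the adjusted and 3.14% and 2.05% past the unadjusted threshold. Ppara and Cpt1a were thus highest in Q20 among the 6-month males apart from Ppara in Q92, and the 6-month value of a longer line depends on which control it is set against.

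The other lines of 6 months showed mostly higher levels than Q20. Q80 differed in 10 genes, 9 higher, beside 8.24% of all genes and 3.38% higher: Cyp4a14 by 1.19 ± 0.34, Crat by 0.67 ± 0.19, Acaa1b by 0.53 ± 0.17, Cpt2 by 0.38 ± 0.09, Etfdh by 0.32 ± 0.10, Eci1 by 0.28 ± 0.09, Acadm by 0.24 ± 0.07, Acadvl by 0.22 ± 0.06 and Hadha by 0.22 ± 0.07, with Cpt1a lower by -0.34 ± 0.10. Q92 differed in 10 genes, all higher, beside 16.6% of all genes and 6.63% higher: Acot1 by 1.13 ± 0.34, Fabp1 by 0.63 ± 0.14, Pex11a, which drives peroxisome division, by 0.63 ± 0.17, Acaa1b by 0.60 ± 0.17, Eci2 by 0.38 ± 0.12, Slc25a20 by 0.34 ± 0.10, Decr1 by 0.26 ± 0.09, Hadha by 0.25 ± 0.07, Acadl by 0.23 ± 0.07 and Acaa2 by 0.20 ± 0.06. Q111 differed in 2, Fabp1 by 0.60 ± 0.14 and Acadvl by 0.25 ± 0.06, beside 0.678%. Q140 differed in 2, Cpt1a by -0.36 ± 0.10 and Pdk4 by 0.998 ± 0.30, beside 4.91%. Without the same 3 Q20 females the count was 0 in each of these 4 lines, beside 0.749%, 2.3%, 0% and 0.791% of all genes. At an unadjusted p under 0.05 the counts were then 6, 5, 5 and 6, beside 12.8%, 19%, 6.74% and 12% of all genes (edgeR). A difference of any kind among the 6 knock-in lines passed for 15 genes at 6 months, beside 23.9% of all genes, and for 6 without these 3 libraries, beside 11.7%: Ppara, Cpt1a, Cpt2, Creb3l3, Acads and Plin2.

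**Figure D4:**
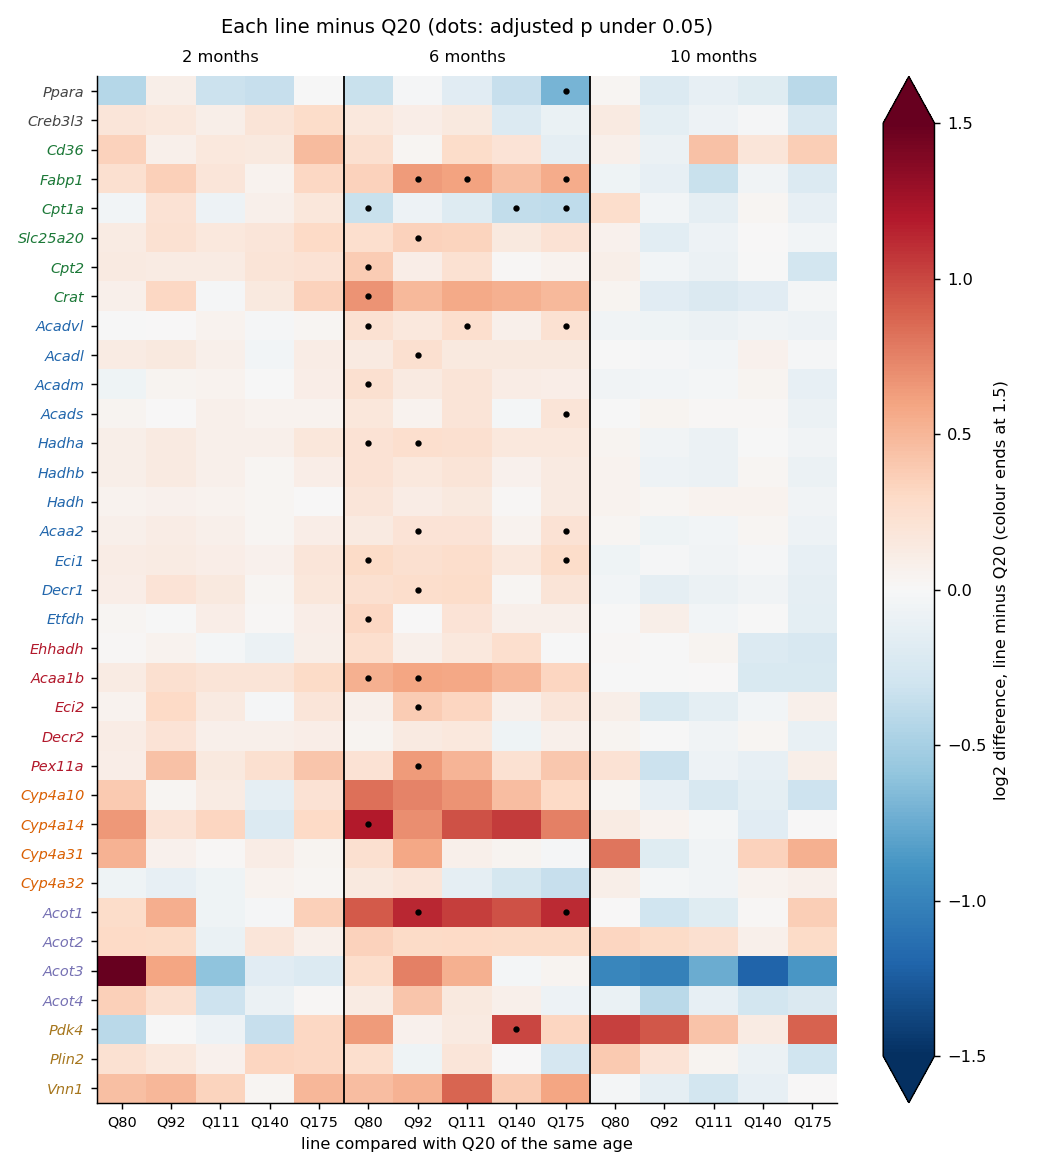
Log2 difference of each knock-in line from Q20 for each of the 35 genes at 2, 6 and 10 months, in colour, with dots where the adjusted p was under 0.05 (edgeR). Dots stand only in the 6-month panel, where most cells are positive and Ppara and Cpt1a are negative.

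At 2 and 10 months no line differed from Q20 in any of the 35 genes by edgeR. For Q175 at 2 months 9 had an unadjusted p under 0.05, beside 0.258% of all genes past the adjusted threshold and 14.1% at that unadjusted p; DESeq2 gave 0. In that comparison 33 of the 35 estimates were positive, with a median of 0.17, led by Slc25a20 at 0.30 ± 0.09 (adjusted p = 0.13) and Creb3l3 at 0.27 ± 0.09 (adjusted p = 0.16). For Q175 at 10 months 5 had an unadjusted p under 0.05, beside 0.931% of all genes past the adjusted threshold and 13.1% past the unadjusted one. There 25 of the 35 estimates were negative, with a median of -0.09, led by Cpt2 at -0.28 ± 0.08 (adjusted p = 0.071; DESeq2 called this 1 gene with adjusted p = 0.046) and Creb3l3 at -0.24 ± 0.09 (adjusted p = 0.23). These counts of signs and medians, at 2 and at 10 months, stand without those over all genes. Genes read in the same libraries are not separate results, so no shift of the list is drawn from them. The other 4 lines at 2 months had 3 (Q80), 9 (Q92), 1 (Q111) and 4 (Q140) genes at an unadjusted p under 0.05, beside 0.0991% of all genes past the adjusted threshold in Q80 and 0% in the rest, and 8.85%, 6.8%, 5.76% and 13% past the unadjusted one. At 10 months they had 4, 2, 2 and 1, beside 0.00637%, 3.72%, 0.962% and 0% past the adjusted and 6.41%, 18.8%, 12% and 3.58% past the unadjusted threshold. Pdk4 in Q175 at 10 months rested on 1 library: F3, the one with muscle RNA, had 24.9 CPM and the others 1.56 to 5.01 CPM, and the estimate of 0.88 ± 0.35 (adjusted p = 0.24) became 0.19 (adjusted p = 0.87) without it. A difference of any kind among the knock-in lines passed for Plin2 and Cpt2 at 10 months, beside 7.9% of all genes, and for 0 genes without 7 libraries (edgeR; 6 at an unadjusted p under 0.05), beside 0.486% and 13% of all genes. Those 7 had over 1 CPM of the muscle gene Acta1 (Q175 F3 and F4), over 1000 CPM of the red cell gene Hba-a1 (Q175 M4) or over 10 CPM of the bile duct gene Krt19 (Q92 F3 and F4, Q111 F4 and M3). The bile duct markers together summed to 148 CPM in Q111 M3, but to 59.2 to 79.1 CPM in the other 3 chosen by Krt19, within the 33.8 to 87.9 CPM of the libraries kept. At 2 months it passed for 0 genes (edgeR and DESeq2; 3 at an unadjusted p under 0.05), beside 0.575% and 13.1%.

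Of the 80 other pathway genes 4 passed between Q175 and Q20 at 6 months, beside 10.2% of all genes. Among them were Med1, a Mediator subunit that binds nuclear receptors, at -0.20, Cyp4f13 at 0.17 and the intestinal-type binding protein Fabp2 at 0.49. Med1 was also the 1 of the 80 that passed in the trend at 6 months, at -0.12 per 100 repeats, beside 5.67% of all genes. None of the 18 other peroxisomal or 17 other mitochondrial genes passed in either comparison.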

How the data were processed

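PolyA RNA of mouse liver was sequenced as single libraries. Base calling used CASAVA 1.8.2, per the submitters' processing notes. Not given in the sources used here are the aligner, the quantifier, the build and the annotation. Expected counts per gene, deposited by the authors, were not whole in 14.1% of values and were rounded here. FPKM per gene, also deposited by the authors, served for levels between genes. Columns of other samples numbered 0. Symbols and positions came from GENCODE M21 (GRCm38), which matched 37607 of 39179 IDs.

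The test was the quasi-likelihood F test of edgeR 4.0.16 (R 4.3.3, TMM factors, filterByExpr on genotype and sex), Benjamini-Hochberg adjusted over all genes tested; 0.05 was the threshold. Genotypes were fitted per age in 1 model with sex as covariate; the trend per 100 repeats and the age differences used the 6 knock-in lines, the latter with genotype and sex. CPM used TMM library sizes. SE is the log2 difference divided by the square root of F. Pairs of genes were related on log2 CPM over libraries. Transcript windows of 50 bases that occur in another gene were counted in GENCODE M21. The scripts were tested on simulated data.

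Alternatives were DESeq2 1.42.0, RLE factors, no low-count filter, limma 3.58.1 on log2(FPKM + 0.1), single sexes, other controls, a replicate block, library index sets and libraries left out. Those for Q80, Q92, Q111 and Q140 at 6 months, and the library with muscle RNA for Pdk4, were added after seeing the data. All 35 genes are described; the text names, per comparison, up to 12 past the threshold by smallest p (more for sex and age), or 2 where fewer passed, and up to 4 of the other pathway genes, of which 1 is not reported here; Abcd2, Phyh and single estimates beside them follow the same rule. Genes named in the single-sex fits, in correlations and for their promoters were chosen after their values were seen. The genes, lists and tests were chosen with earlier results of these data known.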

Additional observations from a re-analysis of the deposited data

Results flagged for a closer look

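For 10 genes (Ppara, Cpt1a, Fabp1, Acot1, Pdk4, Plin2 and others of the list) each of the 21 groups was searched for a library far from the rest, 210 tests in all, of which chance flags about 1 in 20; 10 libraries were found. Ppara was low in the Q111 male M2 at 2 months (53.9 CPM, the others 99.9 to 140) and in the wild-type male M3 at 6 months (54.1 CPM, the others 82.8 to 118). Fabp1 was low in the Q175 female F1 at 6 months (1356 CPM, the others 2006 to 2605). Acot1, the cytosolic thioesterase, was low in the Q20 female F1 at 6 months (5.10 CPM, the others 10.7 to 19.03), 1 of the 3 Q20 females with high macrophage markers, and high in the Q80 library M5 at 2 months (52.7 CPM, the others 15.3 to 26.2), the library labelled male without Ddx3y reads. Pdk4 was high in the Q140 male M2 at 2 months (10.2 CPM, the others 2.42 to 4.78), in the Q175 female F3 at 10 months (24.9 CPM, the others 1.56 to 5.01), which carried skeletal muscle markers, and in the wild-type female F3 at 10 months (8.64 CPM, the others 2.00 to 3.64). It was low in the Q111 male M4 at 10 months (1.65 CPM, the others 3.81 to 7.88). Plin2, the droplet coat protein, was low in the wild-type female F4 at 6 months (151 CPM, the others 278 to 361).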

How the results depend on the processing

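Of 237 alternative counts of the 35 genes past the threshold, 195 stayed within 1.5 times the count reported and 42 did not; the cause was not tested, beyond the fewer libraries that single-sex, wild-type and Q20 fits hold. Leaving out F1, F3 and F4 among the Q20 females of 6 months, the counts were 0 for Q80, Q92, Q111, Q140 and Q175 against Q20 and for the trend, 2 for Q20 against wild type and 6 for any difference among the knock-in lines. Q175 against Q20 at 6 months gave 1 gene in females, 2 in males and 4 against wild type, and 4 to 9 with 1 library left out (0 to 0 at 2 months, 0 to 1 at 10 months); fitted with only these 2 groups it gave 1 at 2 months. The 6-month trend gave 0 in females, 1 in males, and 0 without the Q20 libraries, without the Q175 libraries or with index sets as a covariate; the 10-month trend gave 2 without the Q20 libraries. DESeq2 gave 7 for Q111 and 5 for Q140 at 6 months, and at 10 months 1 for Q175 against Q20 and 4 for any difference; the last gave 0 without 7 libraries with high Acta1, Hba-a1 or Krt19. No low-count filter gave 6 for Q80. Q20 against wild type at 6 months gave 4 with limma on FPKM and 1 in males. Females against males gave 15, 12 and 12 in wild type, and 14 and 14 in Q20 at 6 and 10 months. Age gave 7, 3 and 7 in females (6 against 2, 10 against 2, 10 against 6 months), 1, 1 and 0 in wild type, and 7 with limma on FPKM for 10 against 2 months. Of the genes past the threshold, 17 values changed sign in wild type alone: Etfdh 0.082, Cpt2 0.015 and Acaa1b 0.27 for sex at 2 months and Etfdh 0.048 at 10 months; Decr1 0.039, Cpt2 -0.037, Slc25a20 0.050, Cyp4a32 0.17, Vnn1 0.0041 and Acadvl -0.11 for 6 against 2 months; Ehhadh 0.0067, Hadhb 0.036 and Etfdh 0.0036 for 10 against 2 months; and Cd36 -0.023, Hadha 0.10, Acaa1b 0.093 and Slc25a20 -0.012 for 10 against 6 months. For sex in Q20 alone Acaa1b was 0.36 at 2 months, and Eci2 -0.0082, Decr1 -0.0029 and Acot1 -0.46 at 6 months; with limma on FPKM Acadvl was 0.060 at 6 months and Acads 0.020 at 10 months. Centred within age and sex, Cyp4a14 had r = -0.0084 with Cpt1a and -0.043 with Ppara. For 193 results on single genes 1581 alternatives kept direction and side in 1264 cases, 289 lost and 5 gained the call, and 23 changed sign. Ratios of group means in FPKM kept within the spread of those in CPM for 35 of 35 genes. Same-numbered libraries had little shared deviation (median r from -0.02 to 0.08), so numbers were not taken to pair them. At 6 months their median r was 0.074 in females and 0.083 in males, against -0.015 and -0.020 for libraries of other numbers. The replicate block gave 8 for Q175 against Q20 at 6 months and 11 for Q20 against wild type.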
